A study of Mus musculus with 7 samples.

Results

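The loci of 6 fibroblast growth factor (FGF) ligands, *Fgf2*, *Fgf4*, *Fgf5*, *Fgf7*, *Fgf10* and *Fgf18*, and of the 4 FGF receptors *Fgfr1*, *Fgfr2*, *Fgfr3* and *Fgfr4* were followed by ATAC-seq through the reprogramming of mouse embryonic fibroblasts (MEFs). The members were taken by name, 10 of 21938 protein-coding genes, and each locus was the gene body in GENCODE M21 on mm10 with 20 kb to each side, 0.909 Mb in all. Merging the called peaks of 7 libraries gave 78 regions in these loci, 44 at ligands and 34 at receptors, of 104346 regions in the genome. A peak is a stretch where the transposase Tn5 cut more often than around it, and is read as open chromatin.

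All 6 MEF libraries came from a cross of mice with the allele Col1a1tm1 of Hoch/J on B6;129S4, which places tetO-Pou5f1,-Klf4,-Sox2,-Myc (OSKM) in the *Col1a1* locus, and mice with the allele Gt(ROSA)26Sortm1 of Jae/J on B6.Cg, which makes the transactivator rtTA*M2. Doxycycline lets the transactivator switch the 4 factors on. The MEFs were sampled untreated on day 0 and after 1, 2, 3, 6 and 9 days of doxycycline at 2 ug/ml. The remaining library came from the untreated mouse embryonic stem cell (ESC) line Bruce-4, although the genotype entered for it is the one of the MEFs. It is 1 line. The MEFs were prepared from mid-gestation embryos, whose number per library is not given in the sources used here, and no sorting for reprogrammed cells is named for these libraries. Each time-point has 1 library, so no difference between time-points has a replicate check and no p-value is given.

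FGF ligands are secreted proteins that bind receptor tyrosine kinases at the cell surface with heparan sulfate as a cofactor, and the receptors pass the signal through the adaptor Frs2 to the Ras and MAP kinase pathway. Sprouty and Spred proteins and the phosphatase Dusp6 restrain that pathway from within the cell. In fibroblasts FGF2 is a classical growth factor, while in mouse ESCs FGF4 is the ligand known for priming the cells to leave the self-renewing state.

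The libraries held between 27074 peaks (ESC) and 61241 peaks (day 0) in all, after the authors had brought the reads to a common depth of unstated size, so a locus without a peak is one where none was detected at an unknown depth. The libraries of day 2 (33174 peaks) and day 9 (33007 peaks) had fewer peaks than those of days 1, 3 and 6. Of 10 fibroblast markers, 8 had a promoter peak on day 0 and 3 in ESCs, and the peaks at their loci summed to 48 on day 0, 24 to 36 on the doxycycline days and 11 in ESCs. Of 8 ESC markers, 4 had a promoter peak on day 0 and 4 in ESCs, with 18 peaks at their loci on day 0, 9 to 17 on the doxycycline days and 21 in ESCs. The defining markers *Nanog* and *Sox2* had no promoter peak in the ESC library, and *Zfp42* had one there alone. A bulk library cannot tell fewer cells of a type from less open chromatin per cell, and the part of the changing cell mixture in the values that follow was not tested.

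The FGF loci had far fewer called peaks in ESCs than in untreated MEFs. The 10 loci held 53 peaks (day 0), 42 (day 1), 30 (day 2), 43 (day 3), 40 (day 6), 19 (day 9) and 13 in ESCs. Day 0 was the highest and ESC the lowest, and the libraries of days 1, 3 and 6 lay close to each other. The totals of the libraries fell as well. Per 10000 peaks of the library, the loci held 8.65 (day 0), between 8.92 and 9.19 on days 1, 2, 3 and 6, 5.76 (day 9) and 4.80 in ESCs. So the share of a library's peaks that lay at FGF genes was level until day 6 and lower on day 9 and in ESCs. In length, 21.6 kb of the loci lay under peaks on day 0 and 5.09 kb in ESCs, and the median peak was 361 bp wide on day 0 and 370 bp in ESCs. The median member had 5 peaks (day 0), 3.5 on days 1 and 3, 2 (day 2), 3 (day 6) and 1 in each of the day 9 and ESC libraries. The median protein-coding gene had 3 peaks on day 0, 2 on each doxycycline day and 1 in ESCs. By this count the members stood above it on day 0, below it on day 9 and level with it in ESCs. Per 100 kb, the loci together held 5.83 peaks (day 0), 2.09 (day 9) and 1.43 in ESCs. The median of the single-gene values over all genes was 3.94, 2.22 and 1.95 in the same order. The pooled value of the members lay below it on day 9 and in ESCs. A pooled value and a median of single genes are unlike measures, and no median over the members is given.

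**Figure D1:**
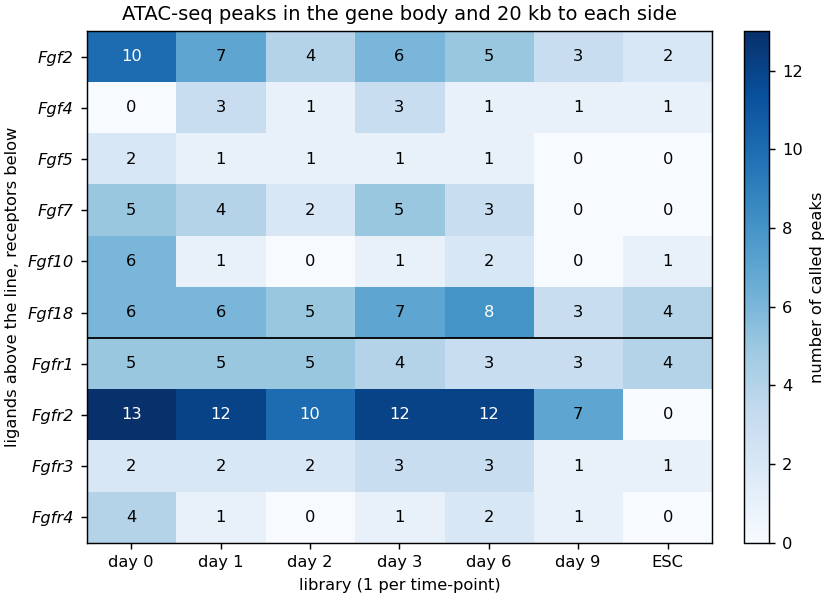
Number of called ATAC-seq peaks in the gene body and 20 kb to each side of each FGF gene (rows, ligands above the line and receptors below) in each of the 7 libraries (columns); colour and printed number both give the count, and there is 1 library per time-point. *Fgfr2* runs from 13 peaks on day 0 to 0 in ESCs, and *Fgf4* is the member with 0 peaks on day 0 and 1 in ESCs.

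Both ligands and receptors had their lowest numbers in the last 2 libraries. The 6 ligand loci held 29 peaks (day 0), 22 (day 1), 13 (day 2), 23 (day 3), 20 (day 6), 7 (day 9) and 8 in ESCs. The 4 receptor loci held 24, 20, 17, 20, 20, 12 and 5 peaks in the same order. On day 9 the ligand loci thus lay 1 peak from their ESC number, while the receptor loci had 12 peaks, 7 of them at *Fgfr2*. Without *Fgfr2*, the other 9 loci held 40 peaks (day 0), 12 (day 9) and 13 in ESCs, so ESC was then no longer the lowest. Compared with day 0, 9 of 10 members had fewer peaks in ESCs, against 59.0% of all protein-coding genes, and 1 member, *Fgf4*, had more, against 11.1% of all genes. The 59.0% counts genes without a day 0 peak, which cannot fall. On day 0, 80.4% of all genes had a peak, as did 9 of 10 members. The members other than *Fgf4* fell by between 1 peak (*Fgfr1*, *Fgfr3*) and 13 peaks (*Fgfr2*). The libraries differ in how many narrow peaks they hold: with each list cut to its 27074 widest peaks, the loci held 21 (day 0), 31 (day 1), 23 to 25 on days 2, 3 and 6, 17 (day 9) and 13 in ESCs, so on this count day 1 and not day 0 was highest and ESC was again lowest. The tally over members fell with it: on these lists 4 of 10 members (*Fgf2*, *Fgf5*, *Fgf7* and *Fgfr2*) had fewer peaks in ESCs, against 26.9% of all genes, *Fgf10*, *Fgfr3* and *Fgfr4* had equal numbers, and *Fgf4*, *Fgf18* and *Fgfr1* had more, against 28.6%.

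Region by region, sites open on day 0 and on doxycycline days but not in ESCs and sites open on doxycycline days only were about equally many. The former class held 25 of the 78 regions, 32.1% (exact 95% interval 21.9 to 43.6, for counting error only), where 20.4% of all regions in the genome belong to it. Regions with peaks on doxycycline days only numbered 24 (30.8%), at the genome's 30.7%. The order of these classes turned with the setting, to 15 against 19 among the 27074 widest peaks and 35 against 37 with flanks of 50 kb. Regions with a peak on day 0 alone numbered 18 (23.1%), near the genome's 23.9%. Regions open in every library were 4 (5.13%, interval 1.41 to 12.6), against 9.75% in the genome, and 2 of these 4 lay at starts of neighbouring genes. Regions found in ESCs alone were likewise 4, against 9.76%. A single region was open on doxycycline days and in ESCs without a day 0 peak, where 3.15% of regions in the genome are of that kind, and 2 regions (*Fgfr1* and *Fgfr3*) were open on day 0 and in ESCs with a gap between, against 2.32%. All of these genome shares but the one of 20.4% lay inside the exact intervals of the FGF loci, which treat regions of one gene as if they were independent. *Fgfr2* alone held 8 of the 25 regions of that class and 18 of the 78, and no interval without *Fgfr2* is given here.

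**Figure D2:**
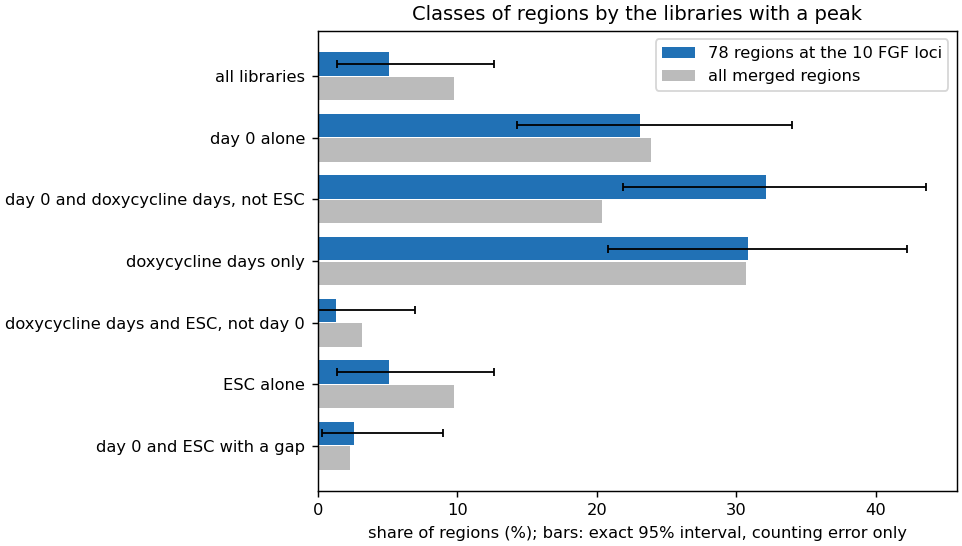
Share of regions (x axis, percent) in each class of libraries with a peak (y axis), for the 78 regions at the 10 FGF loci (blue) and for all 104346 merged regions (grey); whiskers are exact 95% binomial intervals and cover counting error only. The class open on day 0 and doxycycline days but not in ESCs holds 32.1% of the FGF regions and 20.4% of all regions.

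Of the 49 regions open on day 0, 23 (46.9%) also had a peak on day 1, against 44.7% of all day 0 regions, and 6 (12.2%, interval 4.63 to 24.8) had one in ESCs, against 21.4%. From the other side, 6 of the 11 regions open in ESCs (54.5%, interval 23.4 to 83.3) were open on day 0, against 48.3% in the genome. Between adjacent doxycycline days, 26 of 41 regions (63.4%, interval 46.9 to 77.9) kept a peak from day 1 to day 2, against 59.7% in the genome. From day 2 to day 3 it was 24 of 30 (80.0%, 61.4 to 92.3), against 85.2%. From day 3 to day 6 it was 33 of 41 (80.5%, 65.1 to 91.2), against 69.9%. From day 6 to day 9 it was 18 of 37 (48.6%, 31.9 to 65.6), against 62.3%. From day 9 to ESCs it was 6 of 19 (31.6%, 12.6 to 56.6), against 42.2%. Each of these intervals holds the genome's share. Most regions lay away from promoters, with 30 in introns, 27 outside the gene, 6 in other exonic or untranslated sequence and 15 within 1000 bp of an annotated start. None of the 30 intronic regions was open in all 7 libraries. Shares of these places, and of intronic regions open in all libraries, over the genome are not given here, so these counts are a description only. A total of 31 regions rested on a peak in 1 library, 11 of them at the narrowest width called, 200 bp. In the genome 50.7% of regions rested on 1 library.

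**Figure D3:**
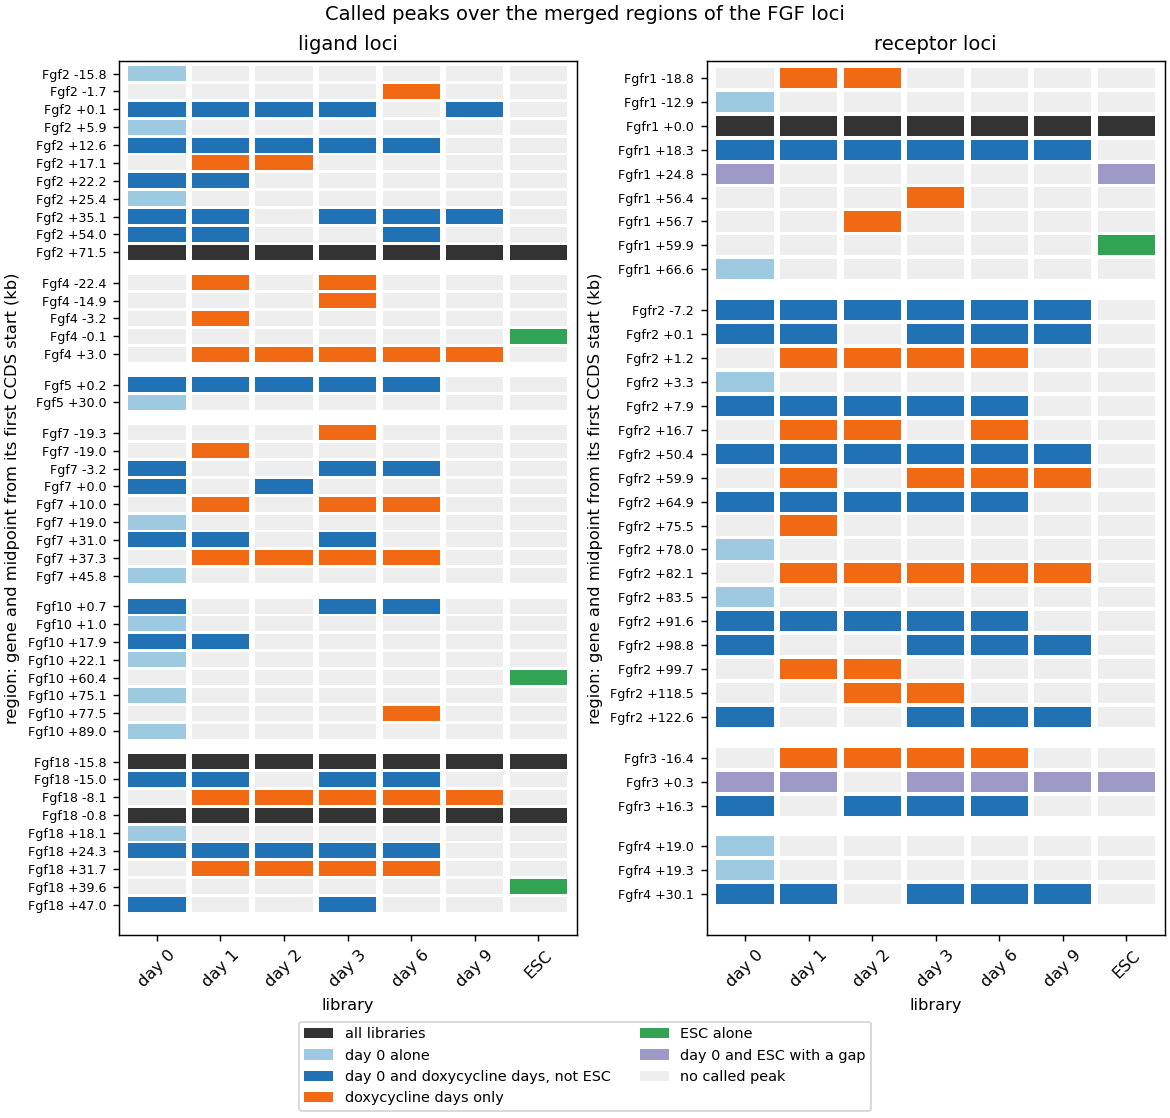
Each row is 1 of 77 merged regions (the class with a single region is not drawn), named by its gene and by the distance of its midpoint from the first start among the gene's consensus coding (CCDS) transcripts (kb, negative upstream), and each column is a library; a coloured cell has a called peak, a grey cell has none, and the colour gives the class of the region. Black rows, open in all 7 libraries, number 4, and no row of *Fgfr2* has a peak in ESCs.

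*Fgf4*, the ligand of ESCs, was open at one place on doxycycline days and at another in ESCs. Its locus (chr7:144847367-144865243, + strand, with 20 kb on each side) had 0 peaks (day 0), 3 (day 1), 1 (day 2), 3 (day 3), and 1 each on day 6, day 9 and in ESCs. The ESC peak was 407 bp wide at chr7:144861042-144861448, over the start of the coding transcript, and no other library had a peak there. The lasting doxycycline peaks lay 3.0 kb downstream of that start, in exon 3 of 3 within the 3' untranslated part, in a region at chr7:144864128-144864704 that was open on all 5 doxycycline days, with peaks of 342 bp (day 1), 479 bp (day 2), 577 bp (day 3), 423 bp (day 6) and 409 bp (day 9). The nearest peak to the site described next lay at 31341 bp on day 0 and at 2946 bp in ESCs. The *Fgf4* 3' end is known from other work as an enhancer at which Sox2 and Oct4 (Pou5f1) bind side by side. The region holds the letters CTTTGT of a Sox site, 4 bases apart from ATGCTAAT, an octamer-like Pou site, 1456 bp past the end of the coding sequence. These letters in this spacing were looked up after the peaks had been seen. Of 104248 regions, 1 holds them in its middle 200 bp, which is this region. The letters are those of this site, so that hit was fixed in advance and is no measure of how rare such a site is. The other 3 regions at *Fgf4*, 459, 200 and 257 bp wide, had peaks on day 1 or day 3 or both, and the 459 bp one lies at a start of the neighbouring *Fgf3*. The site is printed for its pair of letters (in capitals), and the 200 bp at the middle of the ESC peak because it is the one promoter opened in ESCs and not on day 0 (it holds none of the 6 motifs searched, so it has no capitals).
*Fgf4* chr7:144864388-144864417 (+ strand): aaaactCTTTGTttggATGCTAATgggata
*Fgf4* chr7:144861186-144861385 (+ strand): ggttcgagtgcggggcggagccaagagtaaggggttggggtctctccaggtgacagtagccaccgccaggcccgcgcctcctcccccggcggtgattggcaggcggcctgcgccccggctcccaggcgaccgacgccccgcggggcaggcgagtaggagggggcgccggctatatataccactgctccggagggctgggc

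*Fgf2*, the fibroblast mitogen, had most of its day 0 peaks in introns, and no intronic peak in ESCs. Its locus (chr3:37348346-37410108, + strand) had 10 peaks (day 0), 7 (day 1), 4 (day 2), 6 (day 3), 5 (day 6), 3 (day 9) and 2 in ESCs. Day 0 was highest and ESC lowest, and the fall of 8 peaks is matched or exceeded by 781 of 21938 genes (3.56%). Both ESC peaks lay in a region at chr3:37419111-37420530, 71.5 kb from the *Fgf2* start and at starts of *Nudt6* and *Spata5*, which was open in all 7 libraries and is the one region of the locus open in ESCs. The *Fgf2* promoter region (chr3:37348110-37348839) had a peak of 570 bp (day 0), 320 bp (day 1), 200 bp (day 2), 234 bp (day 3) and 247 bp (day 9), and none on day 6 or in ESCs. On day 3 a 206 bp peak lay beside the 234 bp one. The promoter region also holds a start of the antisense gene *Fgf2os*, and peaks carry no strand. Of the 11 regions at *Fgf2*, all but the one at *Nudt6* and *Spata5* lie within the body of *Gm43439*, so they cannot be given to *Fgf2* by position alone. Inside intron 1, the region at chr3:37360536-37361375 was open from day 0 to day 6, with widths of 695, 669, 455, 767 and 515 bp, and had no peak on day 9 or in ESCs. It was the widest intronic site of *Fgf2*, and its middle 200 bp hold 1 match to the Runx letters TGTGGTT, read on the other strand and set in capitals.
*Fgf2* chr3:37360856-37361055 (+ strand): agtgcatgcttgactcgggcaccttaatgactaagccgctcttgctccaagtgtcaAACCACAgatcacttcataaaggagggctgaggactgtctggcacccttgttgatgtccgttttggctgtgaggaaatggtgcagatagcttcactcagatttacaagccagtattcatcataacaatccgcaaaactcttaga

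*Fgf5* and *Fgf7* ended with no peak. *Fgf5*, a ligand known in the hair follicle and in the epiblast after implantation, had 2 peaks on day 0, 1 each on days 1, 2, 3 and 6, and none on day 9 or in ESCs. Its one lasting region (chr5:98254014-98254820) covers the promoter and coding sequence of exon 1, and its peak was 488 and 491 bp wide on days 0 and 1 and 325, 279 and 255 bp wide on days 2, 3 and 6. *Fgf7*, the keratinocyte growth factor that fibroblasts secrete for epithelial cells, had 5 peaks (day 0), 4 (day 1), 2 (day 2), 5 (day 3), 3 (day 6), and none on day 9 or in ESCs. Its promoter (chr2:126034542-126034829) had narrow peaks on day 0 (217 bp) and day 2 (200 bp) alone. In its intron 2 of the coding transcript, the region at chr2:126071633-126072353 had no day 0 peak and was open on day 1 (586 bp), day 2 (536 bp), day 3 (200 bp) and day 6 (210 bp). All 9 regions at *Fgf7* lie within the body of *Fam227b*, so they cannot be given to *Fgf7* by position alone.

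*Fgf10*, a mesenchymal ligand of lung and limb budding, had 6 of its 11 peaks, summed over the libraries, on day 0. Its locus had 6 peaks (day 0), 1 (day 1), 0 (day 2), 1 (day 3), 2 (day 6), 0 (day 9) and 1 in ESCs. Of its 8 regions, 4 were open on day 0 alone, the widest of them in intron 1 (chr13:118736572-118737042, 471 bp) and in exon 3 (chr13:118789633-118790043, 411 bp), and the ESC peak (230 bp, intron 1) was found in no other library. The promoter region chr13:118715282-118715567 had peaks of 200 bp (day 0), 217 bp (day 3) and 200 bp (day 6), at or near the narrowest width called. Another promoter peak on day 0, of 231 bp, lay directly beside it in the coding part of exon 1, and both are also near a start of *Gm16263*.

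*Fgf18*, a ligand for cartilage and lung, was the one ligand of the 6 with a promoter peak in every library. Among the 16 other *Fgf* genes, *Fgf20* shared this state. The *Fgf18* locus had 6 peaks (day 0), 6 (day 1), 5 (day 2), 7 (day 3), 8 (day 6), 3 (day 9) and 4 in ESCs. The day 6 library was highest, and the ESC count lay above that of day 9. The promoter region (chr11:33147499-33148812, - strand gene) was open in all 7 libraries, with peaks of 1071 bp (day 0), 883 to 1048 bp on days 1 to 6, 231 bp (day 9) and 370 bp in ESCs, so the promoter stayed called while its widest peak was narrower in the last 2 libraries. The other constant region, chr11:33162792-33163599, is a start of *Npm1*, a nucleolar protein gene. The intron 4 region chr11:33122598-33123551 was open from day 0 to day 6 and not later, with widest peaks of 647, 648, 639, 590 and 235 bp. On day 6 a 200 bp peak lay beside the 235 bp one, so the smaller width there is that of a split peak. Between *Fgf18* and *Npm1*, the region chr11:33155187-33155901 was open on all 5 doxycycline days (212, 450, 614, 582 and 361 bp) and neither on day 0 nor in ESCs, and it also lies at an annotated start of *Npm1*. Its middle 200 bp are shown as one of the regions found on each doxycycline day alone, with a match to the Tead letters ACATTCC (read on the other strand) in capitals.
*Fgf18* chr11:33155445-33155644 (- strand): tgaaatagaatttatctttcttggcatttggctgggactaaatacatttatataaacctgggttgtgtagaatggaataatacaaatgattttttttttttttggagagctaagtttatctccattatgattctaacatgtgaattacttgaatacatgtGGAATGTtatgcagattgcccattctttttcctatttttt

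*Fgfr1*, the main receptor of fibroblasts, changed little in number of peaks, and its promoter had a peak at every time-point. Its locus (chr8:25513654-25575718, + strand) had 5 peaks (day 0), 5 (day 1), 5 (day 2), 4 (day 3), 3 (day 6), 3 (day 9) and 4 in ESCs. The promoter region at chr8:25518468-25519119 was open in all 7 libraries, between 517 and 614 bp wide in the MEF libraries and 314 bp in ESCs. A region 18.3 kb downstream of the start (chr8:25536259-25537788) was open in each MEF library and not in ESCs. Its widest peak had 646 bp (day 0), 557 bp (day 1), 1187 bp (day 2), 1100 bp (day 3), 1530 bp (day 6) and 661 bp (day 9). On day 1 a 423 bp peak lay beside the 557 bp one. Further into the same intron, the region chr8:25543324-25543859 had a 200 bp peak on day 0 and a 495 bp peak in ESCs, and none on doxycycline. A 460 bp peak downstream of the gene, within *Letm2*, was found in ESCs alone. The middle 200 bp of the region open in each MEF library are printed because it was the widest of the 78 regions, and the capitals mark the Klf letters GGGNGTGG, read on the other strand.
*Fgfr1* chr8:25536924-25537123 (+ strand): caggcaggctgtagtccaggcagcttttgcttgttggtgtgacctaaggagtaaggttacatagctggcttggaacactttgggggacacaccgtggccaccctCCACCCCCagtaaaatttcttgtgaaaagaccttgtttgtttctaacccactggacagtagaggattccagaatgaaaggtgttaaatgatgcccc

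*Fgfr2*, which in its splice forms serves epithelial or mesenchymal cells, had the most peaks of the 10 members on day 0 and none in ESCs. Its locus (chr7:130162451-130266263, - strand) had 13 peaks (day 0), 12 (day 1), 10 (day 2), 12 (day 3), 12 (day 6), 7 (day 9) and 0 in ESCs. With all peaks counted, the first 5 libraries lay within 3 peaks of each other, and the drop came on day 9 and in ESCs. With each list cut to the same number of widest peaks, the locus had 6, 11, 9, 5, 10, 6 and 0 in that order. Day 9 then equalled day 0 and lay above day 3, and *Fgf2* also had 6 on day 0. Peaks at least 300 bp wide numbered 9, 9, 6, 5, 10, 4 and 0. So the level course to day 6 held in neither setting, while ESC had 0 in both. With all peaks counted, 477 protein-coding genes had at least 13 on day 0, and 11 of these (2.31%) had none in ESCs. On the same count 201 of 21938 genes (0.916%) lost at least 13 peaks. Of its 18 regions, 8 were open on day 0 and doxycycline days, 7 on doxycycline days only and 3 on day 0 alone. Open in every MEF library were a region in intron 4 (chr7:130215355-130216395, 547 to 831 bp) and one upstream of the gene, at -7.2 kb (chr7:130273113-130273839, 200 to 717 bp). The start of the coding transcript (chr7:130265745-130266583) had peaks of 460 bp (day 0), 394 bp (day 1), 220 bp (day 3), 546 bp (day 6) and 264 bp (day 9), and none on day 2 or in ESCs. On day 0 a 200 bp peak lay beside the 460 bp one. A neighbouring region 1.2 kb into the gene (chr7:130264789-130265412) had no day 0 peak and peaks of 460, 232, 255 and 524 bp on days 1, 2, 3 and 6. Near starts of shorter transcripts, chr7:130167088-130167784 was open on days 0, 3, 6 and 9 (614, 258, 306 and 276 bp), while chr7:130182643-130182842 and chr7:130262851-130263172 were open on day 0 alone. In intron 8, chr7:130183843-130184520 was open on all 5 doxycycline days, with steady widths of 622, 599, 624, 648 and 581 bp, and had no peak on day 0 or in ESCs. GENCODE M21 also lists a transcript of *Fgfr2* that starts at *Ctbp2* and makes the gene body 2.96 Mb long. It was left out here, and with it the locus would hold 119 peaks on day 0 and 43 in ESCs, since it would take in all peaks up to *Ctbp2*. The middle of the intron 8 region is printed as the receptor counterpart of the *Fgf18* region, with Tead letters in capitals.
*Fgfr2* chr7:130184082-130184281 (- strand): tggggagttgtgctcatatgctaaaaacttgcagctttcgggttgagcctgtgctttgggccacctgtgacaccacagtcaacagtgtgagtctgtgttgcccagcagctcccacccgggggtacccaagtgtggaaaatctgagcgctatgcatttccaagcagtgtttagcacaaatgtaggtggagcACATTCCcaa

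**Figure D4:**
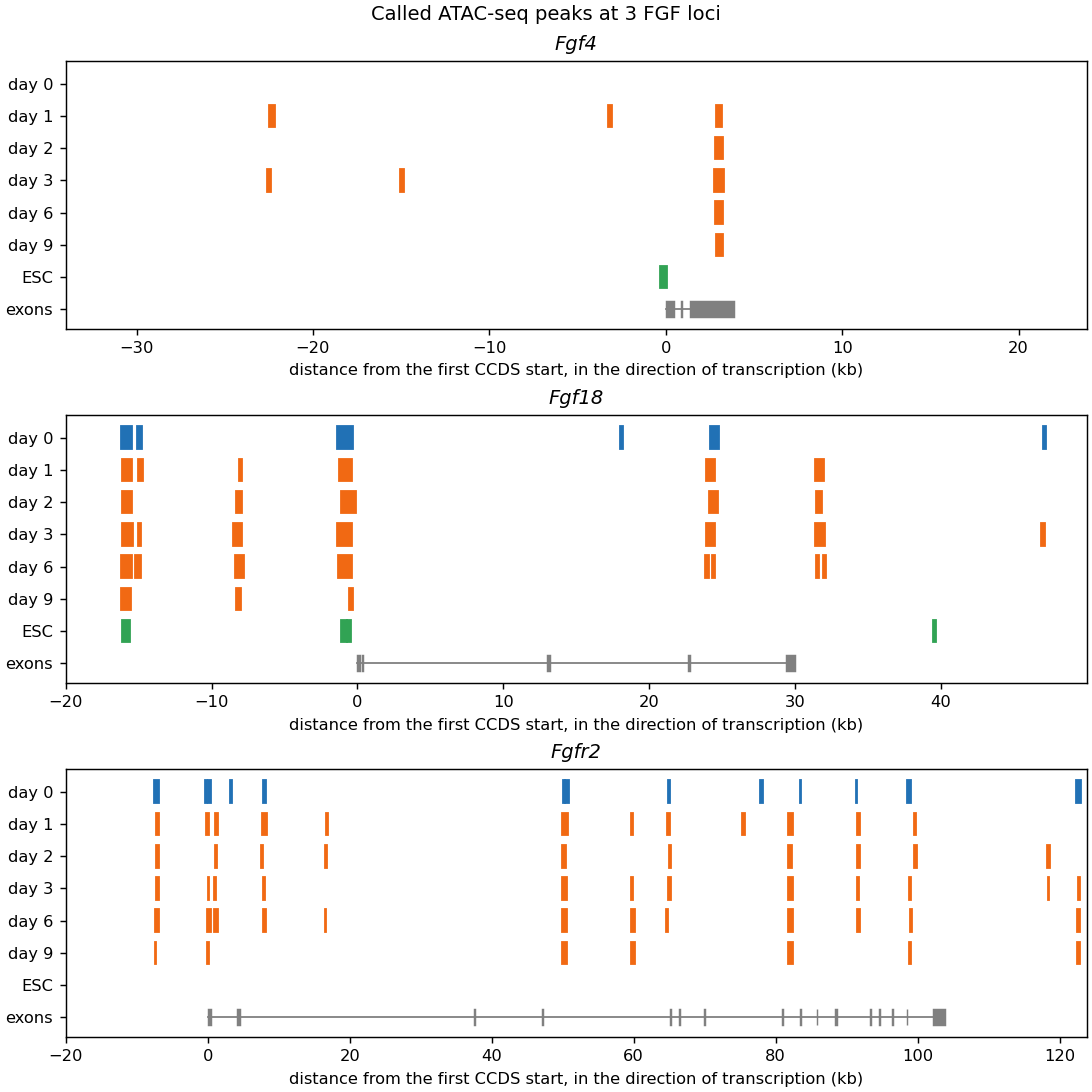
Called peaks at *Fgf4*, *Fgf18* and *Fgfr2*: each line is a library, each bar a peak at its true width (blue day 0, orange doxycycline days, green ESC), and grey boxes are exons of the longest CCDS transcript; the x axis is the distance in kb from the first CCDS start in the direction of transcription. *Fgf4* shows orange bars at 3.0 kb on all 5 doxycycline days and a green bar at its start, *Fgf18* has bars in all 7 libraries at its promoter and orange bars alone at -8.1 kb, and *Fgfr2* has no green bar.

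*Fgfr3*, the receptor that restrains bone growth, had few peaks throughout, with 2 peaks on each of days 0, 1 and 2, 3 peaks on days 3 and 6, and 1 peak in each of the day 9 and ESC libraries. Its promoter region (chr5:33721716-33722416) was open in 6 of 7 libraries, with 555 bp on day 1, 200 to 300 bp on days 0, 3, 6 and 9 and in ESCs, and no peak on day 2. An upstream region at -16.4 kb (chr5:33704980-33705675) was open on days 1, 2, 3 and 6 (573, 224, 609 and 449 bp) and at no other time-point. *Fgfr4*, the receptor of liver, had 4 peaks (day 0), 1 (day 1), 0 (day 2), 1 (day 3), 2 (day 6), 1 (day 9) and 0 in ESCs. No library had a peak within 1000 bp of any *Fgfr4* start. All of its regions lay downstream of the gene, and the lasting one (chr13:55182451-55183072) was 30.1 kb from the start and open on day 0 and on days 1, 3, 6 and 9.

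At promoters, 8 members had a peak on day 0, against 59.7% of all protein-coding genes. On day 1 it was 6 (all genes 55.8%), on day 2 it was 6 (51.6%), on day 3 it was 8 (56.4%), on day 6 it was 6 (57.4%), on day 9 it was 5 (53.4%) and in ESCs it was 4 (50.3%). With 10 members a count of 6 lies within 1 member of the genome's share, and the day 0 and day 3 counts lie above it. Among peaks at least 300 bp wide the counts were 5 (day 0), 6 (day 1), 3 (day 3), 1 (day 9) and 3 in ESCs. Among the widest they were 5 (day 0), 6 (day 1), 2 (day 3) and 4 in ESCs. So day 1 was the highest in both settings, and ESC was the lowest in neither. Promoter peaks of day 0 were absent in ESCs at 5 members, *Fgf2*, *Fgf5*, *Fgf7*, *Fgf10* and *Fgfr2*, where 12.1% of all genes show this. Counting only genes with a day 0 promoter peak, it was 5 of 8 members and 2651 of 13087 genes. In 1 member, *Fgf4*, the reverse was found, against 2.72% of all genes. *Fgf18* and *Fgfr1* were open in every library, as were 9340 of 21938 genes (42.6%), and *Fgfr4* in none, as were 7620 (34.7%). *Fgf4* counted as open on day 3 only through a 200 bp peak near the start of a longer transcript, at -14.9 kb from the start of the coding transcript.

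Promoter peaks were less reduced in ESCs in number over the rest of the FGF pathway, whose difference from the members was not tested. The 36 other genes were 16 *Fgf* genes and 20 receptors, adaptors, inhibitors and target genes. Their promoter peaks numbered 26 (day 0), 27 (day 1), 21 (day 2), 26 (day 3), 25 (day 6), 22 (day 9) and 22 in ESCs. Fewer peaks in ESCs than on day 0 were found at 24 of the 36, more at 10, and the same number at 2. Promoter peaks present on day 0 and absent in ESCs were those of *Fgf1*, *Fgf15*, *Fgf21*, the Ras exchange factor gene *Sos1*, and the inhibitor genes *Spry1* and *Spred2*. The promoters of *Fgf14* and *Fgf16* were open in ESCs and not on day 0. The 6 inhibitor genes (*Spry1*, *Spry2*, *Spry4*, *Spred1*, *Spred2* and *Dusp6*) all had promoter peaks from day 0 to day 9, and 4 of them in ESCs, where the peaks at their loci had gone from 23 on day 0 to 9. The peaks of the whole libraries fell as well, from 61241 on day 0 to 27074 in ESCs. In all 7 libraries 16 of the 36 promoters were open, among them the adaptor genes *Frs2*, *Grb2* and *Gab1* and the target genes *Etv1*, *Etv4* and *Etv5*. Over the 7 libraries, *Fgfr2* shared its exact promoter pattern with *Fgf15*, *Spry1* and *Spred2*, and with 941 of 21938 genes (4.29%), and *Fgf5* shared its own with *Fgf1*, and with 143 genes (0.652%). *Fgf2*, *Fgf4*, *Fgf7*, *Fgf10* and *Fgfr3* shared theirs with none of the 36. These patterns count all annotated starts. With CCDS starts alone *Fgfr2* had no promoter peak on day 2, and the matches on that count are not given here.

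**Figure D5:**
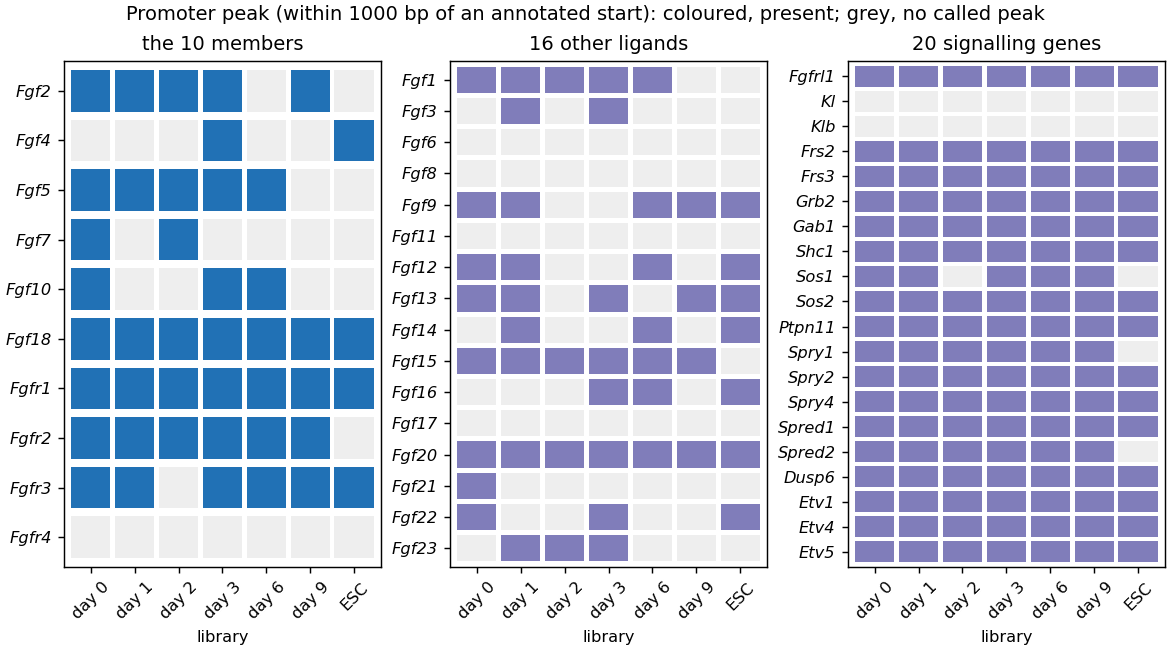
Promoter peaks (a called peak within 1000 bp of any annotated start) in the 7 libraries (columns) for the 10 members (left), 16 other *Fgf* genes (middle) and 20 signalling genes (right). Coloured cells have a peak, grey cells have none. The heading of the middle panel calls all 16 ligands, which is too broad. In ESCs 4 of the 10 members and 22 of the 36 others are coloured, and *Spry1*, *Spred2* and *Fgf15* have the same row as *Fgfr2*.

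In base composition and short motifs the FGF regions were near the genome's regions. The middle 200 bp had a median GC content of 48.8%, against 48.5% over all regions, with 56.0% at the 15 promoter regions and 47.5% at the other 63. Letters were searched on both strands in the same middle 200 bp alone, so the rest of a wider region was not searched. There, none of the 78 regions held the Pou octamer ATGCAAAT, where 2.28% of all regions do. The AP-1 letters TGANTCA were found in 12 regions (15.4%; all regions 16.0%), the Sox letters ACAAAG in 10 (12.8%; 17.6%) and the Klf letters GGGNGTGG in 9 (11.5%; 10.2%). The Runx letters TGTGGTT were found in 7 (8.97%; 5.42%) and the Tead letters ACATTCC in 6 (7.69%; 5.22%). Among the 24 regions open on doxycycline days only, 5 held Tead letters and 5 held Runx letters (20.8% each), where 4.89% and 5.72% of all regions of that class do, and 2 held AP-1 letters (8.33%, against 11.6%). In the same 24 regions the Sox letters were found in 12.5% (class in the genome 22.1%), the Klf letters in 4.17% (11.4%) and the Pou octamer in 0 (3.83%). These are counts of matches in few regions, with no test, and a match is not a binding site.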

How the data were processed

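ATAC-seq peaks of 7 mouse libraries, 1 per time-point, were analysed as deposited. Per the study's methods, the authors cut reads to 50 bp (Trimmomatic), aligned them with Bowtie2 on mm10, took out duplicates (Samtools fixmate, Picard), reduced the libraries to one unstated depth and ran MACS2 on each (no model, extension 200, shift 100, q-value 0.05). The deposited files hold chromosome, start and end alone, with no score, so reads per peak are unknown and the number of peaks is the measure.

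Genes came from GENCODE M21 (same assembly as mm10) and sequences from its genome. Positions count from 1. A peak belonged to a locus at 1 bp of overlap with the gene body and 20 kb to each side, and a promoter peak lay within 1000 bp of any annotated start. Touching peaks were merged into regions. Where a library had more than 1 peak over a region, the width given is that of the widest, unless another is named. The *Fgfr2* transcript that starts at *Ctbp2* (Fgfr2-217) was left out after the annotation had been seen. All members are named, and 1 of their regions is not reported here. Regions are named, where the text describes their class, from those at promoters, those open in all libraries and the widest 2 per class and member, and not all of these are named; the *Fgfr2* region upstream of the gene, a 257 bp *Fgf4* region and the Sox and Pou letters at *Fgf4* fall outside this rule and were chosen after their values were seen. Members, lists and motifs were chosen with earlier results of these data known. Shares carry exact (Clopper-Pearson) 95% intervals for counting error only. Computation used scipy 1.17.1, numpy 2.4.6, matplotlib 3.10.9 and pysam 0.24.0. On simulated data the overlap code recovered 100% of 2000 planted sites, and its merging gave the same regions as BEDTools 2.31.1.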

Additional observations from a re-analysis of the deposited data

How the results depend on the processing

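No paired analysis was possible because no time-point has more than 1 library, and for the same reason no replicate could be left out. The order of the totals, day 0 highest and ESC lowest, held in each setting run except the widest peaks (day 1 highest) and the loci without *Fgfr2* (day 9 lowest). In the order day 0, 1, 2, 3, 6, 9, ESC, the loci held 83, 64, 47, 65, 64, 34 and 26 peaks with flanks of 50 kb, and 159, 124, 104, 143, 131, 85 and 56 with the long *Fgfr2* transcript. The gene body alone gave 33 (day 0), 24 (day 3), 25 (day 6), 12 (day 9) and 6 (ESC). Peaks at least 300 bp wide gave 30, 24, 24, 11 and 8 for the same libraries, and the 27074 widest gave 21 (day 0), 23 (day 3) and 25 (day 6). Without *Fgfr2*, day 9 had 12. Promoter peaks at 300 bp or wider were found at 5 (day 0), 6 (day 1), 3 (days 2, 3, 6 and ESC) and 1 (day 9) members. Among the widest they were found at 5 (day 0), 6 (day 1), 2 (day 3), 3 (day 6) and 4 (ESC), and from the 5' most start alone at 2 in ESCs. At 300 bp or wider, day 0 alone held 9 regions and day 0 and ESC with a gap 1. Among the widest, day 0 alone held 2, day 0 and doxycycline days 15, doxycycline days and ESC 2, and day 0 and ESC with a gap 0. Flanks of 50 kb gave 13 open in all libraries, 37 on doxycycline days only and 2 on doxycycline days and ESC, and leaving out other genes' starts gave 2 open in all. With the long transcript the 7 classes, in the order of the figure of class shares, held 22, 55, 62, 91, 8, 14 and 7. ESC minus day 0 turned to 1 (*Fgf18*) and 2 (*Fgfr1*) among the widest peaks, and to 1 (*Fgfr1*) at 300 bp or wider. It became 0 at *Fgf10*, *Fgfr3* and *Fgfr4* among the widest, at *Fgfr4* at 300 bp or wider, at *Fgf18* with flanks of 10 kb and at *Fgf4* with flanks of 50 kb. The biggest class changed to doxycycline days only in the widest, 50 kb and long transcript settings, and the top classes tied at 17 each at 300 bp or wider and at 22 without other genes' starts. The cause of these shifts was not tested. Of 63 totals, 49 promoter counts and 56 class counts recomputed, 35, 40 and 39 stayed within 1.5 times. Of 50 differences between ESC and day 0 per member, 21 were the same, 26 moved and 3 changed sign. Without reads per peak, a weak site and a missing one look alike, and narrow peaks decide much of day 0.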
